A study of Mus musculus with 49 samples.

Results

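The 37 genes described here encode lysosomal enzymes, their cofactors and lysosomal membrane proteins, together with Cln6, a membrane protein of the endoplasmic reticulum whose loss causes lysosomal storage, and Tfeb, a transcription factor of lysosomal genes. They were taken by symbol from the 42521 rows of a table of hippocampal expression, and all 37 had a row. Hippocampus RNA was sequenced from 49 mice of strain C57BLKS/J at 3 months of age, each library from a separate mouse by the series' design text, and expression was given as FPKM, fragments scaled to transcript length and library depth. The mice formed 6 groups that the labels name only by codes: HFD-F, FFD-C, HFD-C, FD-C, CD-F and CD-C, with 9 libraries in HFD-C and 8 in each of the others. The series title concerns maternal obesity, offspring behaviour and a fibre-rich diet, and on that basis the first part of a code was taken to stand for the diet of the dam and its last letter for the diet of the offspring. The labels give neither the meaning of the codes nor the composition, start or length of any diet, and no genotype or agent besides strain and group. Sample titles hold an XX or XY mark (4 XX libraries per group) and a prefix. The libraries of CD-F carry 3 prefixes, those of CD-C 4, HFD-F 3, HFD-C 6, FD-C 3 and FFD-C 4. The main tests hold no term for the prefix and treat libraries that share one as independent. CD-F and CD-C share 0 of the 20 prefixes, so a difference between their prefixes and a difference between the codes cannot be told apart.

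Lysosomes are acidic organelles in which hydrolases break down proteins, glycans and lipids delivered by endocytosis and autophagy. A proton pump keeps the lumen acid, heavily glycosylated membrane proteins such as LAMP1 and LAMP2 line it, and channels and transporters release ions and digestion products. TFEB and its relatives switch on many of these genes together by binding an E-box with flanking bases in their promoters. In brain all cell types carry lysosomes, and microglia, the resident phagocytes, hold large amounts of several cathepsins and of CD68. Loss of single members causes storage diseases that mostly harm neurons, among them the neuronal ceroid lipofuscinoses (Cln3, Cln6, Tpp1, Ppt1, Ctsd, Ctsf and Grn) and mucopolysaccharidoses (Naglu, Sgsh and Gusb).

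Promoter sequences are shown for the members that hold the extended E-box TCACGTGA, the palindromic core of the element that TFEB recognises. RefSeq promoters (GRCm38.p6, 250 bases before to 50 bases after an annotated start) were matched for 34 of the 37 genes, with 41 promoters in all. Ctsb, Ctsh and Asah1 had no entry. TCACGTGA, which reads the same on both strands, stood in 5 of these 41 promoters (12.2%) and in 320 of all 32851 RefSeq promoters (0.974%). The shorter E-box CACGTG, which TCACGTGA contains, stood in 13 of the 41 (31.7%) and in 2349 of all promoters (7.15%). The 13 genes were Cln3, Ctsa, Ctsd, Ctsf, Ctsl, Gaa, Gla, Glb1, Lamp1, Lgmn, Mcoln1, Naglu and Sgsh. The 5 promoters with the longer motif are given 5′ to 3′ along the gene, in order of p in CD-F against CD-C, with each TCACGTGA in capitals.
Ctsa (chr2:164833523-164833822, plus strand): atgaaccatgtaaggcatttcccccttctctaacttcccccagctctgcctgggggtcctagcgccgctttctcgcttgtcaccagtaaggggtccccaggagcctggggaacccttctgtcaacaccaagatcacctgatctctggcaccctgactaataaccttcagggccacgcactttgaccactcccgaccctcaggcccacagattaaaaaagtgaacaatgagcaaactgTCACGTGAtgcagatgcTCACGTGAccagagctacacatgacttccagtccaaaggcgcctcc
Mcoln1 (chr8:3500269-3500568, plus strand): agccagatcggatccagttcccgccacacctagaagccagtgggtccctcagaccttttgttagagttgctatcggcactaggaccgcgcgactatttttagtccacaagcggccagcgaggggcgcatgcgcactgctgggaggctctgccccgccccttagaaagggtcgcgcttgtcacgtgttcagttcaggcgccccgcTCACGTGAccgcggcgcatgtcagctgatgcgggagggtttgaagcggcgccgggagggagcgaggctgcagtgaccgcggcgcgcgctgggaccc
Ctsd (chr7:142387778-142388077, minus strand): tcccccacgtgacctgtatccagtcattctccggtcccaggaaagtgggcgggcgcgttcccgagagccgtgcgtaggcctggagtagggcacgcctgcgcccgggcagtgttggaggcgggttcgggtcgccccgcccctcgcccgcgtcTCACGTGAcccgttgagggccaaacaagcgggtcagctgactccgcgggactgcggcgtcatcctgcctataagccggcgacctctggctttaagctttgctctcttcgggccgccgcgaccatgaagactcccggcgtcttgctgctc
Gla (chrX:134600956-134601255, minus strand): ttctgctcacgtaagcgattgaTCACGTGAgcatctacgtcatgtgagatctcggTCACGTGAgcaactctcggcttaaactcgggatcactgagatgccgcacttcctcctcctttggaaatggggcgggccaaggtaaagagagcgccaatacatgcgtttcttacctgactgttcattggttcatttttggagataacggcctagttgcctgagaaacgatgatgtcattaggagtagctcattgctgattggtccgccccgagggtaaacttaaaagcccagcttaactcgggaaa
Cln3 (chr7:126583187-126583486, minus strand): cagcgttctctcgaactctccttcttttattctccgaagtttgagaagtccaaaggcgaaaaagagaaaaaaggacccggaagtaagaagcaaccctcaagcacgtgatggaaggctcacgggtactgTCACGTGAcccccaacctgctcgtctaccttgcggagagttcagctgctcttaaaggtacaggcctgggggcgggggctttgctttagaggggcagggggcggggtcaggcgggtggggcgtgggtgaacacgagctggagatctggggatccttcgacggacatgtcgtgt
Ctsa and Gla held the motif at 2 places and the other 3 genes at 1. In Ctsa the first copy began 13 bases before the annotated start, in Mcoln1 46 bases before it, in Ctsd 99, in Cln3 122 and in Gla 228 and 195. Of the 15 genes that were higher in CD-F than in CD-C and had a promoter entry, 2 held TCACGTGA and 7 held CACGTG. Of all 34 members with an entry, called or not, 5 held TCACGTGA and 13 held CACGTG. A match describes the letters of the window and shows no binding.

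Levels differed widely between members on the FPKM scale, which is per length. Over all 49 libraries the cysteine protease Ctsb had the highest mean at 460 FPKM, followed by Atp6ap1, an accessory subunit of the proton pump, at 259 FPKM, Cln6 at 208 FPKM and Psap, the precursor of the saposins that help lipid hydrolases, at 176 FPKM. The lowest mean was that of the glucuronidase Gusb at 1.63 FPKM, after the peptidase Ctsh at 4.08 FPKM and the cystine exporter Ctns at 4.18 FPKM. Spread within groups, as an SD on the log2(FPKM + 0.5) scale, was smallest for the thioesterase Ppt1 at 0.06 and the progranulin gene Grn at 0.11, and largest for the lipase Lipa at 0.62 and the tetraspanin Cd63 at 0.33. The mean FPKM was highest in CD-F for 32 of the 37 members, in FFD-C for 2, in FD-C for 2 and in HFD-C for 1. The share of all rows that were highest in each group is not given here.

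All 37 members passed the filter of a mean of at least 0.5 FPKM that left 16029 rows for testing. Differences were tested with limma on log2(FPKM + 0.5) in a single model of all 49 libraries, with Benjamini-Hochberg adjustment over all rows tested and a threshold of adjusted p under 0.05. Differences are on that log2 scale, with limma's SE. Over the 6 groups, limma's F-test called 13 of the 37 members (Ctsa, Ctsb, Ctsf, Cd68, Naglu, Sgsh, Man2b1, Man2b2, Manba, Cln6, Grn, Lgmn and Smpd1), where 12% of all rows were called.

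**Figure D1:**
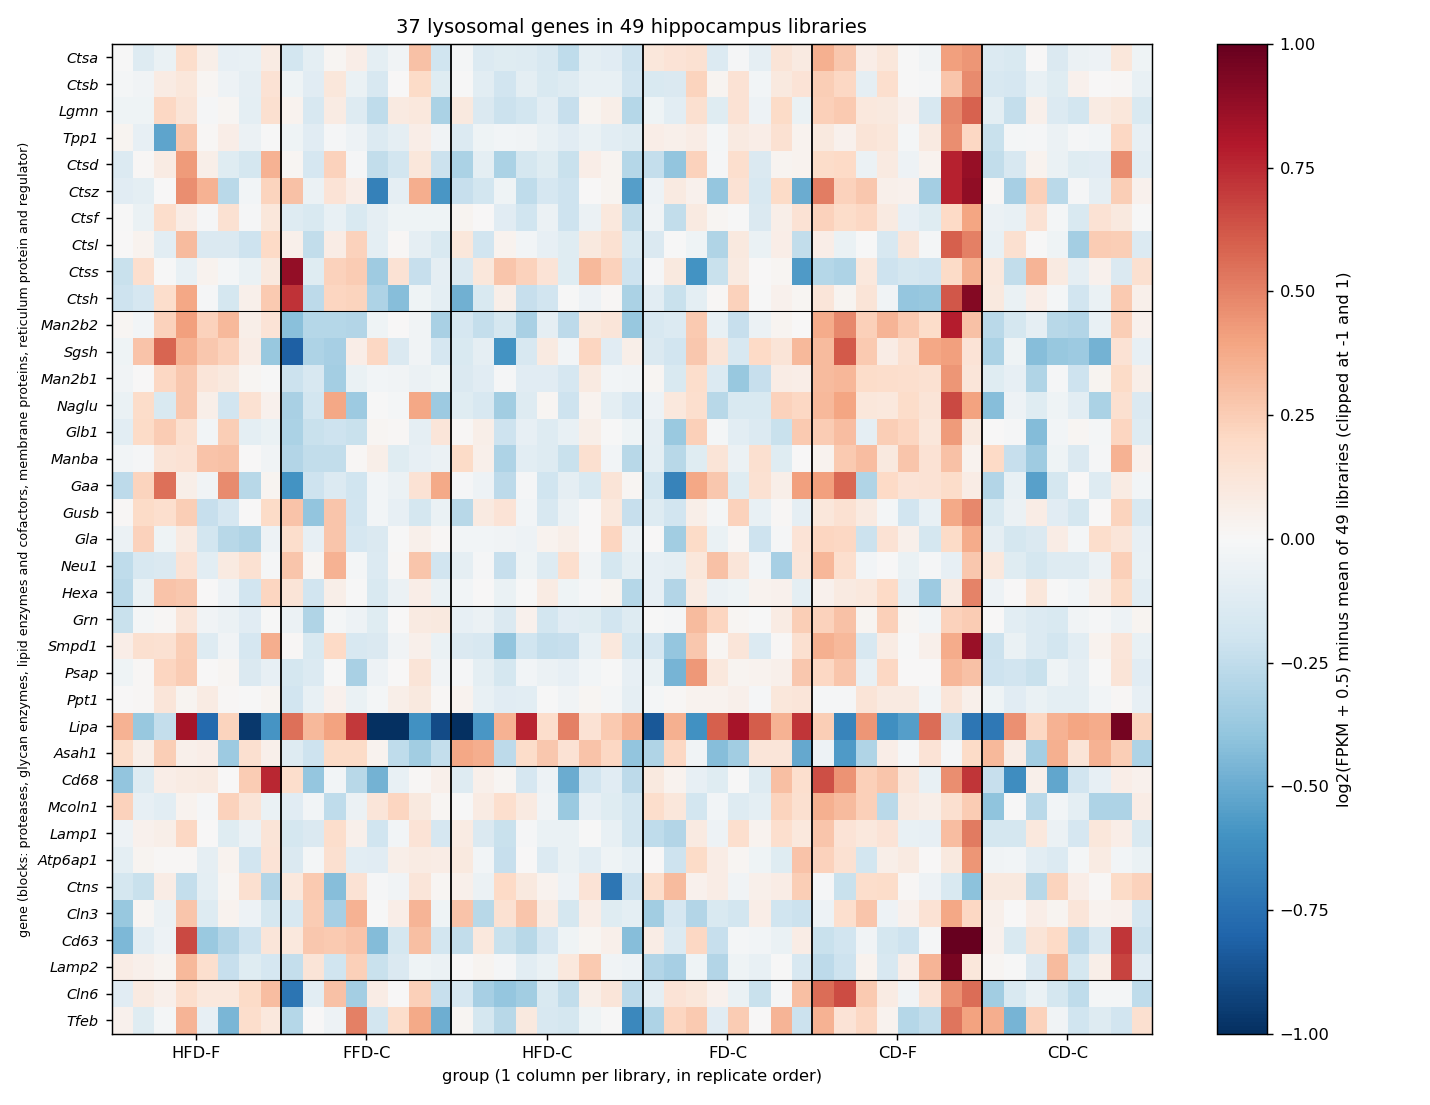
Each row is a gene and each column a library; colour is log2(FPKM + 0.5) minus the gene's mean over 49 libraries, clipped at -1 and 1. Red cells occur in the blocks of all groups. CD-F has the highest mean FPKM for 32 of the 37 genes, and replicates 7 and 8 stand out in its block. Lipa has the widest spread of the 37 genes in all groups but CD-F, where Cd63 is wider.

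CD-F against CD-C compares the offspring code F with C under the dam code CD. In CD-F 16 of the 37 members were higher and 0 were lower than in CD-C, and 33 of 37 differences were positive. Over all tested rows 4.54% were called higher and 8.88% lower, and 52.7% of differences were positive. The median difference was 0.21 over the members and 0.02 over all rows. The members that were higher included glycan hydrolases (5 of 11), proteases (3 of 10), lipid enzymes and cofactors (4 of 6), membrane proteins (3 of 8) and Cln6. Differences were modest, between 0.12 and 0.54, that is 1.08 to 1.45 fold. In 0 of the 37 members did every CD-F library lie above every CD-C library, which held for 0.275% of all rows.

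Among the glycan hydrolases, Man2b2, an alpha-mannosidase of N-glycan breakdown (chromosome 5, 36806921 to 36830653, minus strand, GRCm38), differed with the smallest p of the 37. Its 8 CD-F libraries ran from 83.4 to 127 FPKM (median 91.8), against 59.9 to 87.0 FPKM (median 67.0) in the 8 CD-C libraries. All but 2 of the CD-F values exceeded the highest CD-C value (difference 0.48, SE 0.09, adjusted p = 0.000226). Sgsh, the heparan sulfate sulfamidase, ran from 7.62 to 11.3 FPKM (median 8.94) in CD-F, against 5.07 to 8.03 FPKM (median 5.62) in CD-C. Of its CD-F libraries 6 lay above the highest CD-C library (0.54, SE 0.12, adjusted p = 0.00227). Naglu, which removes N-acetylglucosamine from the same polymer, had 6.14 to 9.27 FPKM (median 6.86) in CD-F, against 4.09 to 6.41 FPKM (median 5.21) in CD-C (0.42, SE 0.10, adjusted p = 0.00332). Its groups overlapped in 3 CD-F libraries.
The alpha-mannosidase Man2b1 averaged 8.92 ± 0.76 FPKM in CD-F and 7.21 ± 0.83 FPKM in CD-C (SD, n = 8 each; 0.29, SE 0.07, adjusted p = 0.00329). The beta-galactosidase Glb1, whose row also names Tmppe, averaged 10.6 ± 1.16 FPKM in CD-F and 8.89 ± 1.14 FPKM in CD-C (0.24, SE 0.08, adjusted p = 0.0454). The other 6 glycan hydrolases did not pass. Their differences were 0.32 for the glucosidase Gaa, 0.21 for the beta-mannosidase Manba, 0.16 for Gusb, 0.12 for the sialidase Neu1, 0.12 for the alpha-galactosidase Gla and 0.05 for the hexosaminidase subunit Hexa. Gaa and Manba were nearest the threshold, with adjusted p of 0.0914 and 0.0754, and every CD-F library of Manba lay above the CD-C mean but none above its highest CD-C library.

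Of the proteases, Ctsa, a carboxypeptidase that also shields Glb1 and Neu1 from degradation, had 88.1 to 123 FPKM (median 104) in CD-F, against 81.4 to 97.7 FPKM (median 86.8) in CD-C. The groups overlapped, with 5 of 8 CD-F libraries above the highest CD-C library (0.26, SE 0.06, adjusted p = 0.00498). Ctsb averaged 514 ± 67.1 FPKM in CD-F and 438 ± 24.5 FPKM in CD-C (0.22, SE 0.06, adjusted p = 0.0109), and the asparaginyl endopeptidase Lgmn 39.5 ± 6.8 FPKM in CD-F and 32.2 ± 3.05 FPKM in CD-C (0.28, SE 0.08, adjusted p = 0.017).
The remaining 7 did not pass. Ctsd, the main aspartic protease, had 112 to 214 FPKM (median 128) in CD-F, against 98.5 to 162 FPKM (median 108) in CD-C (0.29, SE 0.12, adjusted p = 0.0857). Its top values were replicates 8 and 7 of CD-F at 214 and 199 FPKM, and replicate 7 of CD-C at 162 FPKM. Tpp1, a tripeptidyl peptidase on a row shared with Rrp8 and Taf10, had a difference of 0.17 (adjusted p = 0.0741), Ctsz 0.32 (adjusted p = 0.134), Ctsf 0.13, Ctsl 0.12 and Ctsh 0.11. Ctss, a cathepsin of phagocytes, was the only protease with a negative difference, at -0.10 (SE 0.12).

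Of the 6 lipid enzymes and cofactors 4 passed. Grn averaged 36.8 ± 3.26 FPKM in CD-F and 31.6 ± 1.5 FPKM in CD-C (0.21, SE 0.06, adjusted p = 0.00999). The acid sphingomyelinase Smpd1 averaged 110 ± 26.4 FPKM in CD-F and 86.7 ± 6.9 FPKM in CD-C (0.31, SE 0.09, adjusted p = 0.0194). Psap averaged 196 ± 20.8 FPKM in CD-F and 164 ± 13.9 FPKM in CD-C (0.25, SE 0.08, adjusted p = 0.022). Ppt1, the least variable member, averaged 105 ± 4.58 FPKM in CD-F and 96.4 ± 2.89 FPKM in CD-C (0.12, SE 0.04, adjusted p = 0.0327).
The acid lipase Lipa and the acid ceramidase Asah1 had negative differences that did not pass. The Lipa row, which also names Gm31417, had 31.8 to 78.4 FPKM (median 40.4) in CD-F, against 32.1 to 103 FPKM (median 68.0) in CD-C (-0.47, SE 0.31, adjusted p = 0.336). Of its CD-F libraries 5 stood at 31.8 to 44.9 FPKM and 3 at 62.9 to 78.4 FPKM, and 1 CD-C library stood at 32.1 FPKM with the other 7 at 61.25 to 103 FPKM. Asah1, on a row shared with Frg1, had a difference of -0.17 (SE 0.13), and a second Asah1 row at a mean of 5.85 FPKM had 0.22 (SE 0.53).

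Among the membrane proteins Cd68, a heavily glycosylated protein of the lysosomes of microglia and other macrophages (chromosome 11, 69664213 to 69666153, minus strand), had the largest difference of all members. Its CD-F libraries ran from 126 to 219 FPKM (median 171), against 86.1 to 140 FPKM (median 121) in CD-C. All CD-F libraries but 1 exceeded the highest CD-C library (0.54, SE 0.12, adjusted p = 0.00162). Mcoln1, the calcium channel through which lysosomes signal, had 17.8 to 27.7 FPKM (median 24.8) in CD-F, against 16.1 to 22.7 FPKM (median 18.9) in CD-C (0.32, SE 0.08, adjusted p = 0.00841). Lamp1 averaged 107 ± 15.4 FPKM in CD-F and 91.5 ± 8.4 FPKM in CD-C (0.22, SE 0.07, adjusted p = 0.0399).
The pump subunit Atp6ap1, on a row shared with Taz, had a difference of 0.15 (adjusted p = 0.103), Cd63 0.13, the battenin gene Cln3 0.12, Lamp2 0.03 and Ctns -0.14, and these 5 did not pass. Cd63 stood at 46.4 and 51.0 FPKM in replicates 7 and 8 of CD-F and at 19.6 to 22.7 FPKM in the other 6 CD-F libraries, against 37.8 FPKM in replicate 7 of CD-C and 19.0 to 26.3 FPKM in the other 7 CD-C libraries. The second Ctns row, at a mean of 3.37 FPKM, had a difference of 1.31 (SE 0.84).

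Cln6, which lies in the endoplasmic reticulum and helps newly made enzymes leave it (chromosome 9, 62838785 to 62852006, plus strand), had 199 to 321 FPKM (median 263) in CD-F, against 161 to 202 FPKM (median 182) in CD-C. All CD-F libraries but replicate 5 exceeded the highest CD-C library (0.50, SE 0.10, adjusted p = 0.00071). Tfeb, the regulator, averaged 7.30 ± 1.55 FPKM in CD-F and 6.40 ± 1.29 FPKM in CD-C, and did not pass (0.17, SE 0.14, adjusted p = 0.438).

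**Figure D2:**
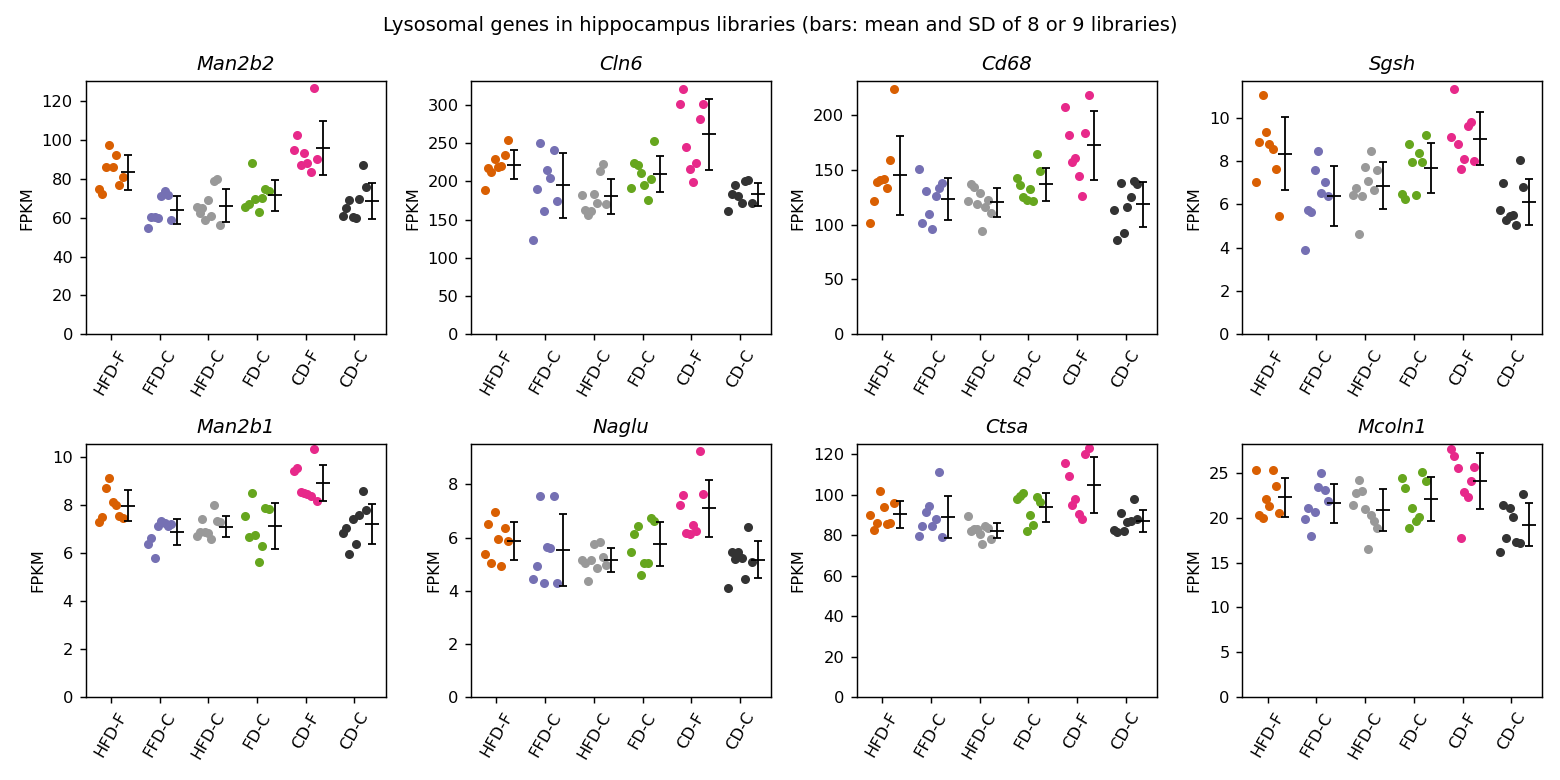
FPKM of the 8 members with the smallest p in CD-F against CD-C; each point is a library, and bars are mean and SD of 8 or 9 libraries per group. CD-F has the highest mean in every panel and overlaps CD-C in each: the lowest CD-F value of Man2b2 is 83.4 FPKM and the highest CD-C value 87.0 FPKM.

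Several properties of the libraries moved with this comparison. Across rows with a matched transcript, the CD-F minus CD-C difference had a Spearman correlation of 0.515 with transcript GC content (n = 14875 rows of the same libraries, a description). The slope of log2 expression on GC, per 10 points, ran from -0.08 to 0.46 over the CD-F libraries, against -0.13 to -0.03 over the CD-C libraries. Median transcript GC was 52.2% for the members and 49.9% for tested rows, and 14 of the 26 members with GC of at least 50% were higher in CD-F, against 2 of the 11 under it (Ctsb and Ppt1). Of all rows 7.81% of 7345 with GC of at least 50% were higher in CD-F, against 1.55% of 7530 under it. After removal of each library's GC trend, 7 members were higher in CD-F and 0 lower, where 2.22% of 14875 rows were higher and 3.11% lower. These were Ppt1 (0.23), Man2b2 (0.35), Cd68 (0.45), Cln6 (0.37), Ctsb (0.21), Sgsh (0.41) and Lamp2 (0.42). Lamp2, the member with the lowest GC at 38.7%, had not passed before. The other 10 lost the call, with differences of 0.09 for Grn to 0.28 for Naglu and adjusted p of 0.0509 for Mcoln1 to 0.236 for Grn.

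**Figure D3:**
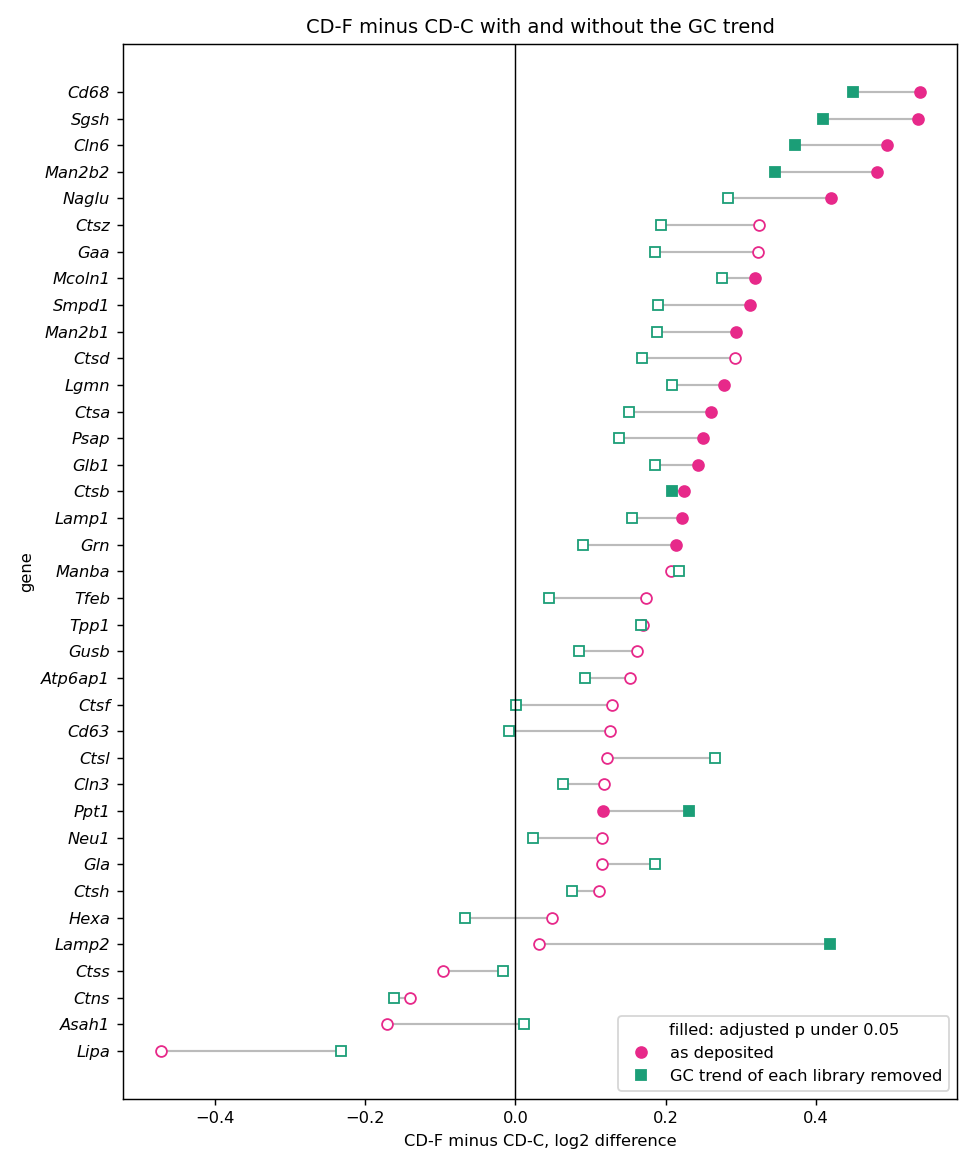
CD-F minus CD-C log2 difference of each member as deposited (circles) and after removal of each library's GC trend (squares); filled symbols passed. Filled squares mark 7 genes; Lamp2 stands at 0.42 as a square and 0.03 as a circle.

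Markers of choroid plexus, a tissue that borders the hippocampus, differed between libraries. Ttr, its most abundant transcript, ran from 24.5 to 18780 FPKM (median 2523) in CD-F, against 31.4 to 13327 FPKM (median 756) in CD-C, and the 6 choroid markers summed to 39.5 to 19310 FPKM in CD-F, against 43.5 to 13670 FPKM in CD-C. Of the 6, 0 passed. Averaged over the 37 members as a log2 deviation from each gene's overall mean, replicates 7 and 8 of CD-F were the highest of all 49 libraries at 0.37 and 0.36, with Ttr at 18780 and 7835 FPKM. Their GC slopes were 0.11 and 0.46, and that of replicate 8 was the highest of all libraries. Replicate 8 held the highest CD-F value for 17 of the 37 members and replicate 7 for 10. In CD-C, replicate 7 (Ttr 13327 FPKM) held the highest value for 24 members. Without the 4 libraries above 7000 FPKM of Ttr, an alternative chosen after seeing the data, 9 members were higher in CD-F: Man2b2, Cln6, Cd68, Sgsh, Man2b1, Naglu, Ctsa, Psap and Manba. Of all rows 4.5% were then higher. With log2 Ttr as a covariate the same 16 members were higher, where 4.72% of all rows were higher and 9.01% lower.

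**Figure D4:**
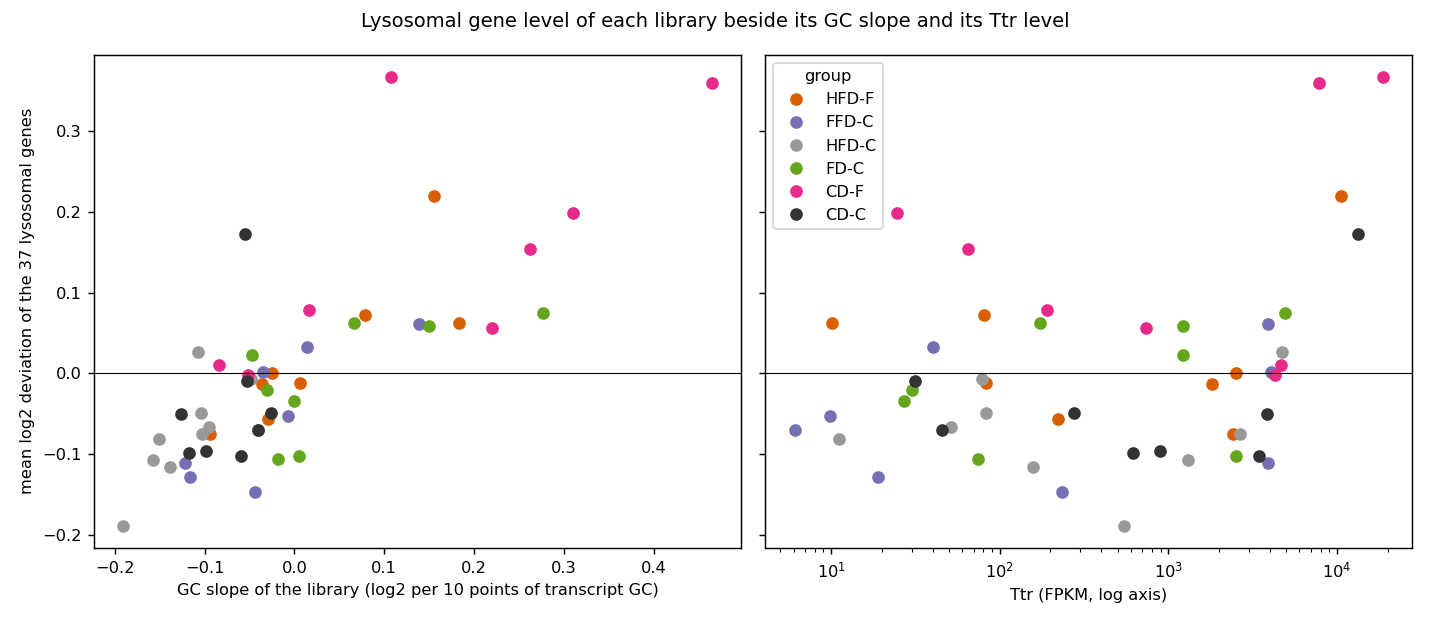
Each point is a library; the vertical axis is the mean log2 deviation of the 37 members, the horizontal axes are the library's GC slope (left) and Ttr in FPKM on a log axis (right). The 4 libraries with Ttr above 7000 FPKM include the 2 highest CD-F points. All CD-C and all HFD-C points have negative GC slopes.

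Microglial markers were read because several members are abundant in microglia. Of the 9, Csf1r was higher in CD-F at 1040 ± 139 FPKM, against 777 ± 91.2 FPKM in CD-C (0.42, SE 0.10, adjusted p = 0.00388), and the other 8 did not pass. Those 8 had differences of both signs. Positive ones were Olfml3 (0.34, adjusted p = 0.0802), Fcrls (0.32, adjusted p = 0.155), Tmem119 (0.16) and Aif1 (0.08). Negative ones were Cx3cr1 (-0.81), P2ry12 (-0.24), Gpr34 (-0.20) and Siglech (-0.12). The summed level of the 9 ran from 933 to 1324 FPKM in CD-F and from 777 to 1372 FPKM in CD-C, and none was at 0 in any library. The top of the CD-C range rests on Cx3cr1, at 403 and 424 FPKM in replicates 7 and 8 of CD-C and at 35.2 to 66.5 FPKM in CD-F. Without Cx3cr1 the sum ran from 892 to 1286 FPKM (median 1191) in CD-F and from 733 to 1081 FPKM (median 850) in CD-C. Most of this sum is Csf1r, at a median of 1092 FPKM in CD-F and 761 FPKM in CD-C. The sum therefore says little about the other markers. Of 6 markers of border macrophages 3 could be tested and 0 passed, with Pf4 at 0 in 6 and Ms4a7 at 0 in 10 of the 49 libraries. Of 6 astrocyte markers 1 was higher (Aldh1l1, 0.33), and 0 of 9 neuronal, 6 oligodendrocyte and 5 endothelial markers passed. In 4 of the 8 CD-C libraries Alb, a liver product, was at 24.3 to 50.1 FPKM, and at most 0.14 FPKM in all CD-F libraries, and 5 of 6 liver transcripts tested were lower in CD-F. Without those 4 libraries 14 members were higher in CD-F, 13 of them among the 16, where 2.38% of all rows were higher and 5.32% lower. The part of GC content, choroid tissue and cell makeup in the members' differences was not tested. In bulk tissue fewer cells of a type and less RNA per cell cannot be told apart.

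HFD-F against HFD-C makes the same comparison of offspring codes under the dam code HFD, in libraries that do not overlap with CD-F and CD-C. Of the 37 members 1, Man2b2, was higher in HFD-F and 0 were lower, where 0.362% of all rows were higher and 1.31% lower. A further 10 had an unadjusted p under 0.05, which 2655 of the 16029 rows tested also had. Man2b2 had 72.0 to 97.5 FPKM (median 83.6) in HFD-F, against 56.3 to 79.8 FPKM (median 65.0) in HFD-C. The groups overlapped, with 5 of 8 HFD-F libraries above the highest HFD-C library (0.33, SE 0.08, adjusted p = 0.0325). With the GC trend removed its difference was 0.23 (adjusted p = 0.17). Only 3 title prefixes hold libraries of both groups (8 of HFD-F and 3 of HFD-C). In each of these the HFD-F libraries carry the opposite XX or XY mark to the HFD-C library. Code and mark thus change together within a prefix, and a fit can separate them only by setting prefixes against each other. Compared within those prefixes, a fit added after seeing the data, Man2b2 differed by 0.11 (SE 0.09, adjusted p = 0.986). There 0 members passed with limma and 0 had an unadjusted p under 0.05. Among all 16055 rows of that fit 0.0436% were higher and 643 had an unadjusted p under 0.05. The Man2b2 call was also lost on leaving out any 1 of 9 of the 17 libraries, with the weakest value without replicate 4 of HFD-F (0.30, adjusted p = 0.0937).
The next members by p did not pass. Cln6 had 189 to 254 FPKM (median 220) in HFD-F, against 156 to 222 FPKM (median 172) in HFD-C (0.31, SE 0.10, adjusted p = 0.0777). Smpd1 had 0.26 (SE 0.09, adjusted p = 0.126), Man2b1 0.16 (SE 0.07, adjusted p = 0.222) and Ctsf 0.14 (SE 0.06, adjusted p = 0.232). Cd68 averaged 145 ± 36.04 FPKM in HFD-F and 120 ± 13.1 FPKM in HFD-C (SD, n = 8 and 9), with replicate 8 of HFD-F at 224 FPKM (0.24, SE 0.11, adjusted p = 0.291). In 0 members did all HFD-F libraries lie above all HFD-C libraries, against 0.0811% of all rows. The median difference was 0.11 over the members and 0.00 over all rows, and 30 of 37 were positive, against 50.1% of all rows. Of the 9 microglial markers 0 passed in HFD-F against HFD-C, with a median difference of 0.16. Olfml3 (0.46, adjusted p = 0.0544) and Csf1r (0.33, adjusted p = 0.0616) were nearest the threshold. HFD-F against HFD-C shared the GC property (Spearman 0.464 with transcript GC over 14875 rows). The property was not limited to comparisons of F with C. Over the same rows the correlation was 0.453 for FD-C against CD-C and 0.357 for FFD-C against HFD-C. It was -0.253 for HFD-C against CD-C and -0.329 for XX against XY libraries. The part of GC content in those comparisons was not tested.

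Of the 16 members that were higher in CD-F, 16 also had a positive difference in HFD-F against HFD-C, each smaller than under the dam code CD. Of all 728 rows that were higher in CD-F, 96.7% had the same sign and 96.7% a smaller difference under HFD, so both shares of the members are near the background. Rows chosen for passing in CD-F tend to be smaller in a second comparison. The difference between the effects was tested as an interaction (the F effect under HFD minus that under CD). None of the 37 members passed with limma, 0 had an unadjusted p under 0.05, and 0% of all rows passed in either direction. An unadjusted p under 0.05 was found in 441 of the 16029 rows tested. The 5 smallest p were those of Mcoln1 (-0.22, SE 0.12), Cd68 (-0.30, SE 0.16), Gla (-0.20, SE 0.11), Grn (-0.15, SE 0.08) and Naglu (-0.25, SE 0.14), each with adjusted p of 1. The 95% interval for Cd68 was -0.63 to 0.03 and that for Mcoln1 -0.46 to 0.02, so equal effects and markedly smaller ones under HFD both lay within them.

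**Figure D5:**
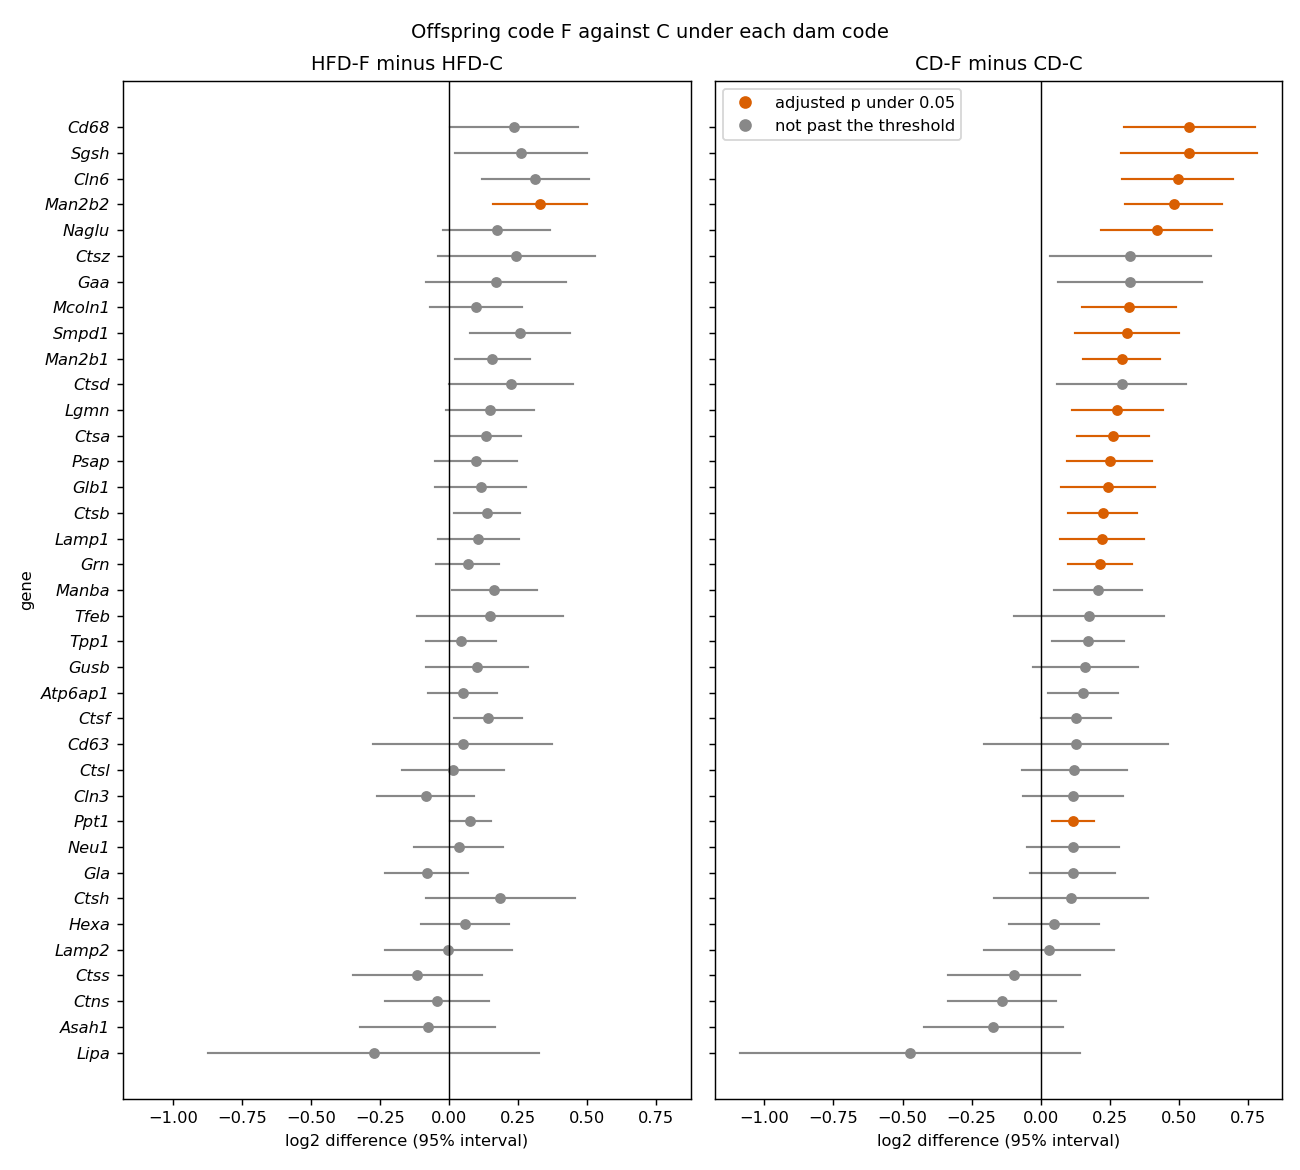
Log2 difference with its 95% interval for each member, HFD-F minus HFD-C on the left and CD-F minus CD-C on the right; orange marks adjusted p under 0.05. On the right 16 genes are orange and on the left only Man2b2, and most left-hand points are positive.

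The remaining comparisons concern the dam's code with offspring on C, and share libraries: CD-C is the reference for HFD-C and FD-C as well as for CD-F, and HFD-C is the reference for FFD-C and HFD-F. The 4 CD-C libraries with liver transcripts therefore enter 3 of the comparisons between pairs of groups, and also the interaction and the F-test over the 6 groups. HFD-C against CD-C had 0 of 37 members higher and 0 lower with limma, 0 with an unadjusted p under 0.05, and 0% of all rows called in either direction. Among the 16029 rows tested 379 had an unadjusted p under 0.05. The 5 smallest p were those of Ctsf (-0.09, SE 0.06), Ctns (-0.13, SE 0.09), Mcoln1 (0.12, SE 0.08), Ctsa (-0.08, SE 0.06) and Sgsh (0.15, SE 0.12), each with adjusted p of 1. Ctsf averaged 6.03 ± 0.54 FPKM in HFD-C and 6.46 ± 0.52 FPKM in CD-C (SD, n = 9 and 8). The differences of the 37 ran from -0.20 to 0.15, with a median of -0.04, against -0.01 over all rows.

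FD-C against CD-C had 0 members past the threshold with limma, where 0.00624% of all rows were higher and 0.193% lower. An unadjusted p under 0.05 was found in 5 of the 37 members and in 1529 of the 16029 rows tested. Grn had 32.6 to 41.0 FPKM (median 34.1) in FD-C, against 29.5 to 33.6 FPKM (median 31.9) in CD-C (0.16, SE 0.06, adjusted p = 0.259). All 8 FD-C libraries lay above the CD-C mean of 31.6 FPKM and 4 above its highest library. Ppt1 had 99.0 to 109 FPKM (median 103) in FD-C, against 93.2 to 102 FPKM (median 95.7) in CD-C (0.10, SE 0.04, adjusted p = 0.287), with 5 FD-C libraries above all of CD-C. Sgsh averaged 7.68 ± 1.15 FPKM in FD-C and 6.10 ± 1.05 FPKM in CD-C (0.31, SE 0.12, adjusted p = 0.332). Cln3 averaged 7.51 ± 0.70 FPKM in FD-C and 8.75 ± 0.53 FPKM in CD-C (-0.21, SE 0.09, adjusted p = 0.408), the only one of the 5 with a negative difference. Mcoln1 had a difference of 0.20 (SE 0.08, adjusted p = 0.415).

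FFD-C against HFD-C had 0 members past the threshold with limma, 0 with an unadjusted p under 0.05, and 0% of all rows called in either direction. Among the 16029 rows tested 956 had an unadjusted p under 0.05. Asah1 averaged 53.9 ± 8.13 FPKM in FFD-C and 63.5 ± 10.99 FPKM in HFD-C (SD, n = 8 and 9; -0.23, SE 0.12). Neu1, on the most abundant of its 4 rows, averaged 73.2 ± 10.4 FPKM in FFD-C and 65.8 ± 5.37 FPKM in HFD-C (0.14, SE 0.08). Ctsa (0.11, SE 0.06), Ctsb (0.09, SE 0.06) and Smpd1 (0.14, SE 0.09) followed, with adjusted p of 0.761 or 0.765 for all 5. Lipa again varied widely, with 4 FFD-C libraries at 66.3 to 86.5 FPKM and 4 at 21.01 to 34.5 FPKM, against 7 HFD-C libraries at 58.6 to 90.3 FPKM and 2 at 21.9 and 35.2 FPKM. In FFD-C the higher 4 had the prefixes FFD1.1 and FFD1.3, and the lower 4 FFD2.2 and FFD3.2. In HFD-C the prefix HFD1.5 held both low libraries, and also replicates 3 and 4 at 67.4 and 90.3 FPKM. The part of the prefix was not tested.

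Between the 24 XX and the 25 XY libraries of all groups 0 members passed with limma, and 0.0873% of all rows were higher and 0.025% lower in XX. An unadjusted p under 0.05 was found in 7 of the 37 members and in 1322 of the 16029 rows tested. Manba averaged 4.69 ± 0.67 FPKM in XX and 4.28 ± 0.55 FPKM in XY libraries (0.11, SE 0.05), and Ctss 45.1 ± 8.30 FPKM in XX and 40.4 ± 7.25 FPKM in XY (0.16, SE 0.07). The X-linked Gla averaged 11.8 ± 1.24 FPKM in XX and 12.75 ± 1.43 FPKM in XY (-0.11, SE 0.04), and Cln6 198.5 ± 35.98 FPKM in XX and 217 ± 42.3 FPKM in XY (-0.14, SE 0.06). Ctns had 0.12 (SE 0.06). Adjusted p lay between 0.536 and 0.587 for these 5.

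The 6 related lists place the members among the rest of the lysosomal system, with 126 of 129 listed genes tested. In CD-F against CD-C 19 were higher and 5 lower, or 15.1% higher, where 4.54% of all rows were higher and 8.88% lower. In the other 4 comparisons of groups 0 passed. Of 25 other hydrolases and activators 4 were higher and 0 lower. Among them were the GM2 activator Gm2a (0.30, SE 0.09, adjusted p = 0.0148) and the arylsulfatase Arsa (0.33, SE 0.10, adjusted p = 0.0163). Of 23 other lysosomal membrane proteins 6 were higher and 1 lower. Ostm1, the partner of the chloride-proton exchanger ClC-7, averaged 60.6 ± 3.94 FPKM in CD-F and 74.3 ± 3.71 FPKM in CD-C on a row shared with Gm38491 (-0.29, SE 0.06, adjusted p = 0.00125). The transporter Abca2 (0.44), the nucleoside transporter Slc29a3 (0.37) and the sodium and calcium channel Tpcn1 (0.30) were higher.
Of 18 proton pump genes 1 was higher, Atp6v0a1 at 401 ± 42.0 FPKM in CD-F and 325 ± 29.8 FPKM in CD-C (0.30, SE 0.07, adjusted p = 0.00332), and 1 lower, Atp6ap2 (-0.29, SE 0.10, adjusted p = 0.0338). Among 15 genes that tag enzymes and sort them to lysosomes, the adaptors Gga1 (0.25), Ap1b1 (0.24) and Ap3d1 (0.21) were higher, and the retromer subunit Vps35 was lower (-0.29, SE 0.10, adjusted p = 0.0393). Of 20 transcription factors and nutrient sensors 2 were higher, Tsc2 (0.26) and Rptor (0.31), and 1 lower, Fnip1 (-0.39). Of 25 autophagy and fusion genes Vps11 (0.43), Atg9a (0.37) and the kinase Ulk1 (0.20) were higher and Atg12 was lower (-0.26, SE 0.06, adjusted p = 0.00377). The median difference was 0.17 for the other hydrolases, 0.16 for the other membrane proteins, 0.05 for the pump, 0.03 for sorting, -0.09 for nutrient sensing and 0.07 for autophagy and fusion, against 0.02 over all rows.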

How the data were processed

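Hippocampus RNA-seq of 49 mice was read from the FPKM table the authors deposited. Per the submitters' processing notes, Trimmomatic 0.38, HISAT2, StringTie 1.3.4d and GRCm38.p6 were used; their roles, the strand setting and the annotation were not given in the sources used here. Columns summed to 1220340 to 1340551 FPKM. Read depth is unknown: of 113183 ratios of low values, 20.1% lay within 0.1 of a whole number, which spacing by chance also gives, so no whole reads were recovered and no counting error is given.

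Each member was the row naming its symbol, of several the one with the highest mean (Neu1, Asah1 and Ctns stand on several rows). Of all rows 1354 name several symbols, and values of shared, overlapping or antisense genes are uncertain. Limma 3.58.1 in R 4.3.3 (trend) tested log2(FPKM + 0.5), which understates changes of low genes, for the 16029 rows averaging 0.5 FPKM or more, with group and XX or XY mark in 1 model. Tests were two-sided. The fit was checked on simulated data with known changes. That noise was drawn independently for each row and library, with the same spread in all groups. The check therefore does not cover trends shared across rows, such as that with GC. Transcript GC and length came from GRCm38 transcripts, and the GC trend was a lowess curve (span 0.3) per library. Figures used Python 3.11.15 and matplotlib 3.10.9.

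Every member is accounted for; where under 5 passed, the 5 smallest p are given, and up to 4 called genes per related list are named, except some that are not reported here. Members and lists were chosen with earlier results of these data known. Alternatives were other pseudocounts, filters and scalings, the GC trend removed, only the groups compared, no XX or XY term, the title prefix as a random block, rows summed per symbol, libraries with liver transcripts left out, each library left out and, added after seeing the data, high Ttr libraries left out, Ttr as a covariate, or the title prefix as a fixed block where both HFD groups share it.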

Additional observations from a re-analysis of the deposited data

Results flagged for a closer look

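In 17 of the 222 sets made by a member and a group, a library stood apart from the others by more than a Dixon test at the 95% level allows for its size, and chance flags about 1 in 20 such sets. Replicate 7 of CD-F was high for Lamp2 (69.4 FPKM, next 45.3), Man2b2 (127 FPKM, next 102) and Tpp1 (114 FPKM, next 95.8), and replicate 8 of CD-F for Smpd1 (166 FPKM, next 118). Replicate 7 of CD-C was high for Ctsd (162 FPKM, next 120), Cd63 (37.8 FPKM, next 26.3) and Tpp1 (95.6 FPKM, next 82.2). Replicate 4 of HFD-F was high for Cd63 (36.3 FPKM, next 24.8). These 4 libraries are the ones with Ttr above 7000 FPKM (18780, 7835, 13327 and 10510 FPKM in the order named), and the part of that tissue in the values was not tested. Replicate 1 of FFD-C was high for Ctss (77.8 FPKM, next 50.3) and Ctsh (6.92 FPKM, next 4.75), and also had the highest Csf1r (1057 FPKM) and Tmem119 (7.60 FPKM) of its group.

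The other flagged values were Cd68 at 224 FPKM in replicate 8 of HFD-F (next 158.5), Gla at 14.3 FPKM in replicate 8 of HFD-C (next 12.7), Hexa at 8.94 FPKM in replicate 9 of HFD-C (next 10.4), Cln3 at 8.99 FPKM in replicate 6 of FD-C (next 7.66) and at 7.57 FPKM in replicate 8 of CD-C (next 8.60), Asah1 at 44.2 FPKM in replicate 6 of HFD-F (next 59.1) and Ctns at 3.34 FPKM in replicate 3 of CD-C (next 4.18). None of the 37 members passed the interaction test, which does not show that responses to F were equal under the dam codes.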

How the results depend on the processing

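In CD-F against CD-C, Man2b2, Cln6, Cd68 and Sgsh stayed higher under all 14 alternatives and in all 16 fits that left out 1 library. The count of members higher (16) was 7 with GC trends removed, 8 with only the groups compared and 9 without the libraries of high Ttr. All rows higher (728) were 330 with the GC trend removed, 453 with only the groups compared and 381 without the CD-C libraries with liver transcripts, and all rows lower (1423) were 463 with the GC trend removed and 853 without those CD-C libraries. Leaving out 1 library at a time gave 11 to 19 members and 425 to 960 rows higher. Lamp1 was lost in 9 of these 16 fits, Glb1 in 12, Ppt1 in 7, Psap without replicate 2 or 3 of CD-C or 7 of CD-F (adjusted p = 0.0515, 0.0534 and 0.0574 with limma), Lgmn without replicate 7 of CD-F (0.0508) and Smpd1 without replicate 8 of CD-F (0.062). Ctsd passed without replicate 7 of CD-C (0.37), 3 of CD-F (0.34) or 5 of CD-F (0.34), and Tpp1, Manba, Gaa, Atp6ap1 and Ctsz each passed in 1 or 2 such fits.

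In HFD-F against HFD-C, the single member higher became 0 with no filter on low values and with the GC trend removed, and 0 to 2 in the fits that left out 1 library. Cln6 then passed without replicate 7 or 8 of HFD-C or 1 of HFD-F. Rows higher (58) and lower (210) were 29 and 111 with no filter, and 8 and 15 with the GC trend removed. They were 33 and 134 with the title prefix as a random block, and 29 and 117 without the 4 libraries of high Ttr. Upper-quartile scaling gave 111 rows lower. Leaving out 1 library gave 10 to 98 higher and 62 to 282 lower.

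The other comparisons kept 0 members past the threshold under each alternative run. Of 2255 values of single members under alternatives, 79 fell below the threshold, 18 passed it and 0 of the called ones changed sign. The title prefix block left 14 members higher in CD-F, all among the 16, where 3.84% of all rows were higher and 8.28% lower. The labels give no replicate numbers that could pair libraries, and CD-F and CD-C share no title prefix. HFD-F and HFD-C share 3 prefixes; with these as a fixed block and the other HFD-C libraries left out, 0 members, 7 rows higher and 1 row lower passed in HFD-F against HFD-C. That fit keeps 3 HFD-C libraries and 6 residual degrees of freedom, and within each shared prefix the code and the XX or XY mark change together. Read depth is unknown, so differences of lowly expressed members such as Gusb rest on an unknown number of reads.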

Other observations

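Lipa varied most of the 37 members. Over the 49 libraries its row ran from 21.01 to 103 FPKM, a ratio of 4.91, while the ratio of the highest to the lowest library was 1.25 for Ppt1 and 3.07 for Cd63, the next widest. In HFD-F its values were 26.8 to 94.4 FPKM, and in FD-C 29.2 to 94.1 FPKM. The row also names the predicted gene Gm31417.

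Counting the members that stood above their own median of all 49 libraries, replicate 8 of CD-F had 35 of 37, replicate 4 of HFD-F 34, replicate 7 of CD-F 33 and replicate 7 of CD-C 31, and replicate 9 of HFD-C, the library with the lowest GC slope (-0.19), had 2. The highest GC slope was that of replicate 8 of CD-F (0.46).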
